A study of Mus musculus with 8 samples.

Results

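Spp1 encodes osteopontin, and its transcripts were followed in single cells of the periosteum, the tissue sheath on the outer surface of bone, from mice on normal diet (ND) and high-fat diet (HFD). The groups were male C57BL/6J mice aged 16 weeks, kept on ND chow or on HFD chow from 4 weeks of age, with no transgene or deletion named for either group. Femurs and tibias of 4 labelled mice per diet were digested with collagenase and dispase, with no sorting step described. Cells were read in droplets with 3′ counting of unique molecular identifiers (UMIs). The counts of each diet came as 1 matrix and were treated as 1 library. Spp1 was 1 of 32285 genes in the count matrices and was chosen by its pattern over cell class and diet in these same libraries, so its levels are given as a description without a test. At least 1 Spp1 UMI was found in 576 of 6029 kept ND cells and in 978 of 6224 kept HFD cells. Kept cells had more than 500 and fewer than 8000 genes and less than 20% mitochondrial UMIs.

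Each diet was thus treated as 1 library, and cells of 1 library are not replicates of a diet. Levels are sums of Spp1 UMIs per 1000000 UMIs of the same cells (UPM) with an exact Poisson interval, and shares of cells carry an exact Clopper-Pearson interval, both at 95% and both covering counting error only. The barcodes carried no mouse name, so the number of mice behind a group of cells was not determined, and diet cannot be told apart from any other difference between the libraries. The libraries were close in depth, with 48106513 ND and 49411888 HFD UMIs over kept cells and medians of 4610 and 4823.5 UMIs per cell, and 15 barcodes occurred in both.

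Osteopontin is a secreted acidic phosphoprotein of the SIBLING family (small integrin-binding ligand N-linked glycoproteins), whose genes lie together and whose products take part in the mineralization of bone and tooth. In bone it is laid down by osteoblasts and osteocytes and by chondrocytes that mature toward hypertrophy, where it binds mineral and offers an attachment site to osteoclasts through integrins. Macrophages and other leukocytes also make it, where it acts as a cytokine through integrins and CD44.

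Spp1 (ENSMUSG00000029304) lies on the plus strand of chromosome 5, at chr5:104435118-104441050 in GENCODE annotation of GRCm38, the build known as mm10 to which the reads were aligned. It is the last of the SIBLING genes in this stretch, after Dspp, Dmp1, Ibsp (chr5:104299171-104311469) and Mepe (chr5:104325329-104338611). Mepe ended 96506 bases and Ibsp 123648 bases before the Spp1 start, and Pkd2, a calcium channel gene outside the family, began 18399 bases after its end. The promoters of Spp1 and Ibsp are shown because these were the SIBLING genes with more than 20 UMIs in either library. Each is a RefSeq window of GRCm38.p6 on the plus strand, from 250 bases before to 50 bases after the start site (chr5:104434861-104435160 and chr5:104299037-104299336). Capitals mark matches to AACCACA, the letters bound by RUNX factors, to CCAAT (read here as ATTGG, its other strand) and to TTTAAA, which resembles a TATA box.
Spp1: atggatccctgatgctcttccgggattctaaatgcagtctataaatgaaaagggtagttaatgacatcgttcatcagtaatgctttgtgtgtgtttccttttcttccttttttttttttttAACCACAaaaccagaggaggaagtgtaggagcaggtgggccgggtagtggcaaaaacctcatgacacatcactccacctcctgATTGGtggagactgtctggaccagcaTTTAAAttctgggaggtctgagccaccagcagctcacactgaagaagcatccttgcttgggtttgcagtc
Ibsp: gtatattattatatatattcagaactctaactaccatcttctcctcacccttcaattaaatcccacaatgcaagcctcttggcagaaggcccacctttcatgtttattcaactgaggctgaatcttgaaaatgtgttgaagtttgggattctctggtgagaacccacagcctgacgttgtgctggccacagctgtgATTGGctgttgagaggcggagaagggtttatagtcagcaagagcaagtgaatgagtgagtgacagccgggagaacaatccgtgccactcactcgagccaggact
The Spp1 window held AACCACA with its first base at -129 from the start site, ATTGG at -46 and TTTAAA at -20. The Ibsp window held ATTGG alone, at -54. A second RefSeq window of Spp1 (chr5:104435942-104436241) held none of these letters. On either strand and counting overlaps, AACCACA occurred in 5.27% of 32851 mouse promoter windows of this length, CCAAT in 37.4% and TTTAAA in 13.2%. A match is a description of letters and not of a bound factor.

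Spp1 was highest in the osteoblast-like and chondrocyte-like cells of both libraries and far lower in every other named class. Classes were named from marker genes after clustering. The osteoblast-like cells, which had Col1a1 (type I collagen) at 20990 UPM in ND and 22489 UPM in HFD and Bglap (osteocalcin) at 5139 and 6081 UPM, had Spp1 at 2088 UPM (1968 to 2213) in ND and 11077 UPM (10882 to 11274) in HFD. The chondrocyte-like cells had 1992 UPM (1717 to 2299) and 11114 UPM (10747 to 11490), so the intervals of these 2 classes overlapped within each library. The osteoblast-like cells held 27.5% of all Spp1 UMIs in ND and 63.6% in HFD, although they were 0.979% and 2.09% of the kept cells.

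In ND the order below them was tenocyte-like cells at 127 UPM, neutrophil-like cells at 87.1 UPM, basophil or mast-like cells at 62.9 UPM, hematopoietic progenitor-like cells at 57.9 UPM and macrophage/monocyte-like cells at 44.6 UPM. The interval of the 48 basophil or mast-like cells (43.8 to 87.5 UPM) overlapped those of the neutrophil-like, progenitor-like and macrophage/monocyte-like cells, so these neighbours were not in a settled order. Of its 35 Spp1 UMIs 1 cell held 27, and with cells weighted equally the level was 28.3 UPM. In HFD the order was neutrophil-like cells at 129 UPM, macrophage/monocyte-like cells at 86.3 UPM, NK-like cells at 60.9 UPM, tenocyte-like cells at 60.6 UPM, basophil or mast-like cells at 59.7 UPM and progenitor-like cells at 54.9 UPM. The last 4 of these overlapped in their intervals, and the NK-like interval also reached that of the macrophage/monocyte-like cells. Dendritic-like cells had 32.0 UPM in ND and 18.0 UPM in HFD, and fibroblast progenitor-like cells 27.4 and 20.5 UPM. T-like cells had 5.55 and 7.21 UPM, pericyte or smooth muscle-like cells 3.17 and 16.0 UPM, and erythroid-like cells 1.79 and 4.18 UPM.

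**Figure D1:**
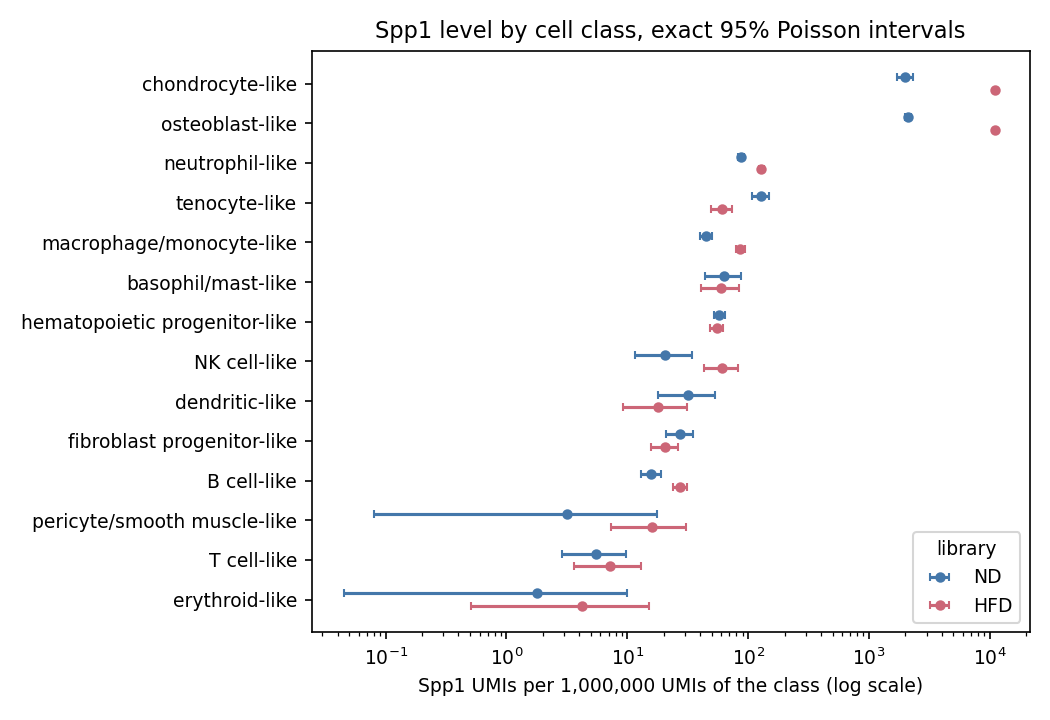
Spp1 level (UPM, log axis) in each named class for the ND and HFD libraries, with exact 95% Poisson intervals that cover counting error only. The osteoblast-like and chondrocyte-like cells stood at 1992 UPM or above in both libraries, and every other named class was at 129 UPM or lower.

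B cells, which are not a main source of osteopontin, were taken as a low-level reference for Spp1. B cell-like cells had 15.8 UPM in ND and 27.3 UPM in HFD, with an Spp1 UMI in 4.09% and 8.26% of cells at medians of 3889 and 3822 UMIs, and so this reference was itself higher in HFD, by 0.79 (0.46 to 1.13) on the log2 scale. How much of this level was free RNA was not tested. T-like cells lay lower, at 5.55 UPM (2.87 to 9.69) in ND and 7.21 UPM (3.60 to 12.9) in HFD. B cell-like clusters also differed, with 21.3 and 41.2 UPM in cluster 1 and 0.894 and 15.2 UPM in cluster 5. Fibroblast progenitor-like, T-like, pericyte or smooth muscle-like and erythroid-like cells lay near or below the B cell-like level in at least 1 library. NK-like cells did so in ND and dendritic-like cells in HFD. The Spp1 of these classes there was not read as signal above this reference. Subclusters of the fibroblast progenitor-like cells differed. Subcluster 0, led by Ccl11, had 55.4 UPM (42.1 to 71.6) in ND, above this reference, and 32.2 UPM (24.2 to 41.9) in HFD. In ND 1 cell held 27 of its 58 Spp1 UMIs. Subcluster 2, led by Pi16, had 2.55 and 4.72 UPM. The osteoblast-like level was 132 times the B cell-like level in ND and 406 times in HFD, the neutrophil-like level 5.52 and 4.73 times, the progenitor-like level 3.67 and 2.01 times, and the macrophage/monocyte-like level 2.82 and 3.16 times. These multiples hold for this reference only. Barcodes that the filter removed held 6.63 UPM in ND and 90.7 UPM (66.9 to 120) in HFD, an interval that included the HFD macrophage/monocyte-like level of 86.3 UPM.

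In osteoblast-like cells the level was higher in the HFD library by 2.41 on the log2 scale (2.32 to 2.50), a 5.30-fold ratio. Only 12 of the 7709 genes with at least 20 UMIs in this class had a higher ratio, and the median gene had 0.00 (log2). The share of cells with Spp1 did not follow the level. An Spp1 UMI was found in 22 of 59 ND cells (37.3%, 25.0 to 50.9) and in 47 of 130 HFD cells (36.2%, 27.9 to 45.0), at median depths of 7703 and 7238 UMIs. After thinning each cell to 1000 UMIs the shares were 28.8% and 28.1%.

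The difference lay in the cells with the highest counts. The upper quartile was 2.5 Spp1 UMIs in ND and 5.0 in HFD, the median was 0 in both, and the mean over single cells was 19.2 ± 101 (SD, 59 cells) and 95.1 ± 408 (SD, 130 cells). The highest ND cells had 775, 56, 55, 41, 40, 39 and 30 Spp1 UMIs. The highest HFD cells had 3021, 2465, 1665, 1656, 905, 888, 368, 260, 256, 111 and 101. The 1 ND cell with 775 UMIs held 68.5% of the Spp1 of its class, and the 1 HFD cell with 3021 UMIs held 24.4%. Without the highest cell of each library the log2 ratio was 3.65, since the ND level rested on 1 cell. Without the top 10% of cells by Spp1 count in each library (6 ND and 13 HFD cells) it was 0.96. Of the 11 HFD osteoblast-like cells with at least 100 Spp1 UMIs, 4 were among the top 5% of doublet scores. Such scores were held by 14 of all 130 HFD cells of the class and by 9 of all 59 ND cells. Without all cells of such scores the ratio was 1.55. The highest 4 HFD cells had 0 or 1 UMI of Cd68, a macrophage gene, and 3 to 7 of S100a8, a neutrophil gene. Among them the cells with 1665 and 1656 Spp1 UMIs had top doublet scores.

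**Figure D2:**
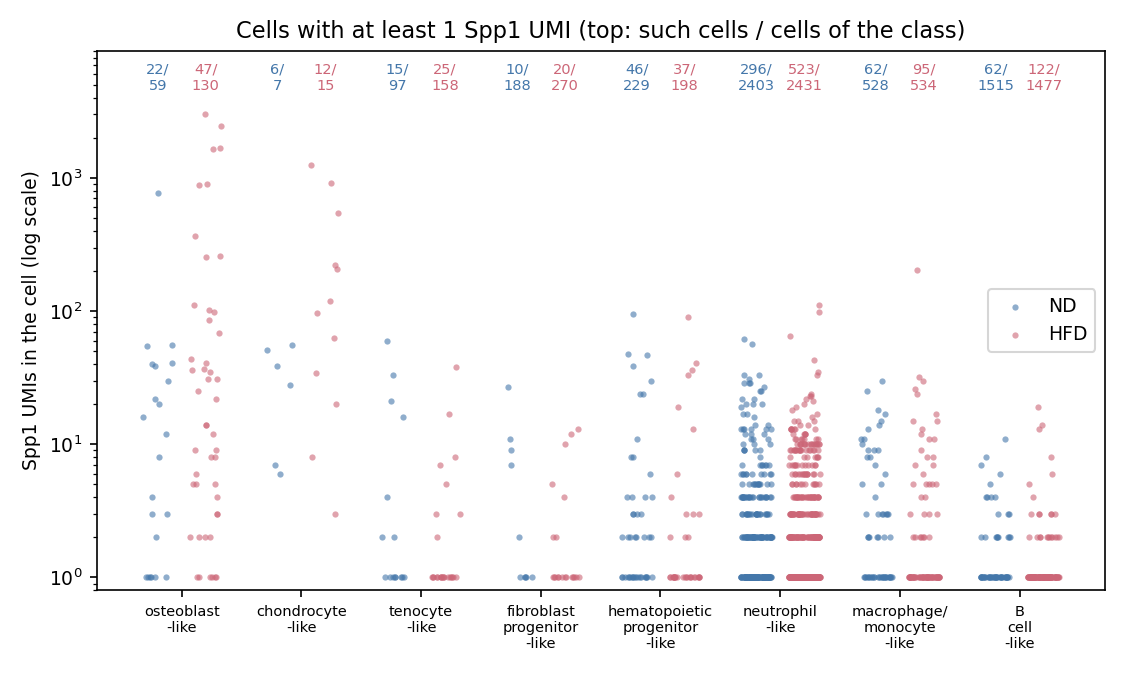
Spp1 UMIs (log axis) in each cell with at least 1, by class and library, with 1 point per cell and, above, the number of such cells over the cells of the class. In osteoblast-like cells the highest ND cell had 775 UMIs, 1 cell far above the others, and the highest 11 HFD cells had 101 to 3021 UMIs.

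Spp1 took a large part of the transcripts of the highest cells. It made up 14.3% of the 21198 UMIs of the HFD cell with 3021 Spp1 UMIs, 21.5% of the 4215 UMIs of the cell with 905, and 4.58% of the 16903 UMIs of the highest ND cell. Ibsp, which encodes bone sialoprotein, was present in each of these cells, at 221, 101 and 180 UMIs. Markers used to name the class were low or absent in some of the same 3 cells. Bglap had 21, 1 and 231 UMIs, Alpl 10, 0 and 3, and Runx2 2, 0 and 6. Mmp13, a collagenase of hypertrophic chondrocytes and osteoblasts that was picked after its values were seen, had 126, 124 and 83 UMIs in them. Of the osteocyte genes, Mepe had 0 UMIs in all 3 cells and Dmp1 had 0, 1 and 0, while the HFD cell with 1665 Spp1 UMIs had 10 Dmp1 UMIs.

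The chondrocyte-like class was small, with 7 ND and 15 HFD cells. The ND cells had 56, 51, 39, 28, 7, 6 and 0 Spp1 UMIs, and the HFD cells had 1245, 915, 541, 222, 208, 118, 96, 63, 34, 20, 8, 3, 0, 0 and 0. The 8 highest HFD cells lay above every ND cell, and the log2 ratio was 2.48 (2.27 to 2.70). With so few cells it moved widely, to 1.65 after thinning, 1.69 with cells weighted equally, 2.25 without the highest cell of each library and 3.44 without the 5 highest. The HFD cell with 1245 Spp1 UMIs had 314 UMIs of Col2a1 (cartilage collagen), 127 of Acan (aggrecan) and 1431 of Ibsp. The class was not uniform, since the ND cell with 51 Spp1 UMIs had 0 UMIs of Col2a1 and 1 of Acan. The HFD cell with 915 Spp1 UMIs had 0 UMIs of Col2a1, but 66 of Acan and 1394 of Col1a1. The ND and HFD cells also differed in other genes and in depth, with medians of 12372 and 18201 UMIs. Col1a1 had 2482 UPM in ND and 28906 UPM in HFD, Bglap 3004 and 51.2 UPM, and Ibsp 19972 and 8349 UPM. Single cells carried much of this. The ND cell with 56 Spp1 UMIs, which had a top doublet score, held all 282 ND Bglap UMIs and 1380 of 1875 Ibsp UMIs. The HFD cell with 1245 Spp1 UMIs held 4366 of 9033 HFD Col1a1 UMIs. The part of such differences in the Spp1 ratio was not tested.

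Tenocyte-like cells went the other way, with 146 Spp1 UMIs in ND and 100 in HFD and a log2 ratio of -1.07 (-1.45 to -0.69). Few cells carried this. The highest ND cells had 60, 33, 21 and 16 Spp1 UMIs and the highest HFD cells 38, 17 and 8, and the direction turned to 0.47 without the 5 highest cells of each library. A mesenchymal cluster left without a name, subcluster 5, had 344 UPM in ND and 25.9 UPM in HFD, and 1 ND cell with 149 Spp1 UMIs held most of its 210 UMIs. That cell had 290 S100a8 UMIs. The leading genes of subcluster 5 included the neutrophil genes Retnlg, Ngp and S100a9, and 56.25% of its cells had top doublet scores.

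Over all kept cells Spp1 had 85.6 UPM (83.0 to 88.3) in ND and 394 UPM (388 to 399) in HFD, a log2 ratio of 2.20 (2.15 to 2.25) or 4.60-fold. Of 15994 genes, 54 had a higher ratio. With each class given the same weight in both libraries the log2 ratio was 1.60. The count was concentrated in few cells. The 10 highest cells held 34.4% of all Spp1 UMIs in ND and 70.3% in HFD, and the 100 highest cells 75.8% and 89.5%. At least 100 Spp1 UMIs were found in 2 ND cells and in 19 HFD cells, and the 19 were 11 osteoblast-like, 6 chondrocyte-like, 1 macrophage/monocyte-like and 1 neutrophil-like. Without the 10 highest cells of each library the log2 ratio over all kept cells was 1.06.

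**Figure D3:**
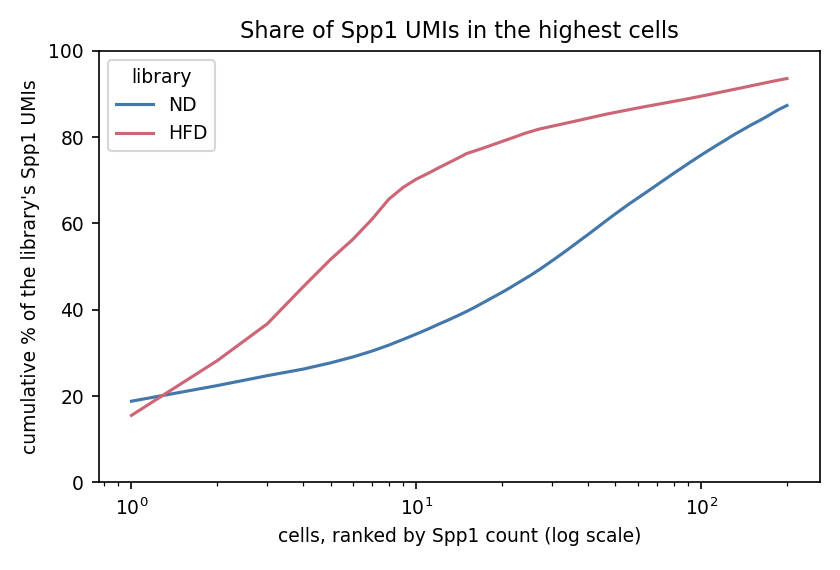
Share of all Spp1 UMIs (percent) held by the cells of highest Spp1 count, against the number of cells (log axis), for each library. The 5 highest cells held 27.7% in ND and 51.7% in HFD.

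**Figure D4:**
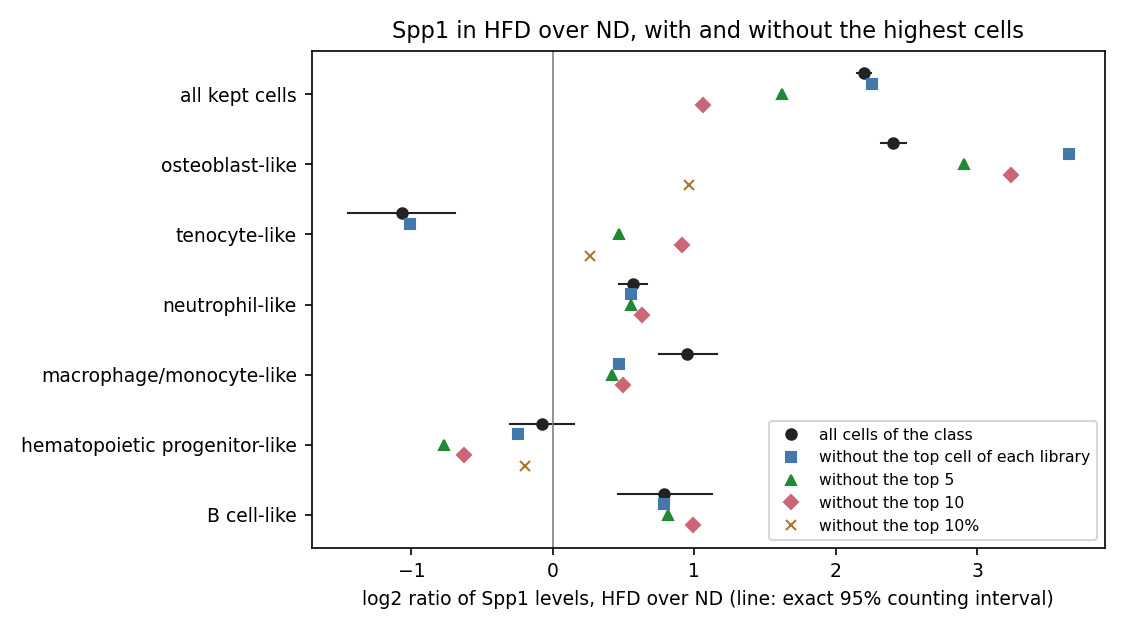
Log2 ratio of the Spp1 level, HFD over ND, over all kept cells and in 6 classes (black points, with exact intervals that cover counting error only), and the same ratio without the top 1, 5 or 10 cells or the top 10% of cells of each library (coloured marks, the last shown where it was computed). Osteoblast-like cells lay at 2.41 and ranged from 0.96 to 3.65 over these removals, neutrophil-like cells lay at 0.57, and tenocyte-like cells at -1.07, which turned to 0.47 without the 5 highest cells.

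Osteoblast-like cells rich in Spp1 had higher levels of Enpp1, Ank, Mgp and Fam20c than those without it, and lower levels of Apoe, Postn and Col3a1, in both libraries. Cells with at least 10 Spp1 UMIs (11 ND, 26 HFD) were set against cells with no Spp1 UMI (37 ND, 83 HFD). As background, 6.12% of 7169 genes were more than 1.5-fold higher in the rich cells of both libraries and 6.22% more than 1.5-fold lower. Of 8 mineralization genes tested 3 were higher in both (Enpp1, Ank and Mgp) and none lower. Enpp1, which makes pyrophosphate, was 5.50-fold higher in ND, on 10 against 7 UMIs, and 13.1-fold in HFD, on 67 against 11. Ank, which exports pyrophosphate and ATP, was 4.95-fold higher on 14 against 11 UMIs and 8.20-fold higher on 97 against 26. Mgp, an inhibitor of calcification, was 4.98-fold and 2.17-fold higher. In ND it was found in 4 of the 11 rich cells and 11 of the 37 without Spp1. In HFD it was found in 9 of the 26 rich cells and 34 of the 83 without Spp1.

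Of 6 enzymes that modify osteopontin 3 were higher in both libraries and 1 was lower. Fam20c, the kinase that phosphorylates osteopontin, had 5 UMIs in the rich ND cells and 3 in those without Spp1, and 41 against 6 UMIs in HFD, a 14.2-fold ratio of levels. Fam20a, its pseudokinase partner, had 3 against 3 UMIs in ND and 17 against 24 in HFD, and Tgm2, a transglutaminase that cross-links osteopontin, had 3 against 3 and 9 against 10. The rich cells held fewer UMIs in all, so that equal counts gave ratios above 1. Mmp9, a gelatinase, had 0 against 4 UMIs in ND and 3 against 18 in HFD.

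Dmp1, an osteocyte matrix gene, had 1 UMI in the rich ND cells and 1 in those without Spp1, and 17 against 1 in HFD, and Ifitm5, a membrane protein of mineralizing osteoblasts, had 7 against 5 and 8 against 6 UMIs. Both were past the fold upward in both libraries, on these few counts. Of the 17 Dmp1 UMIs in HFD, 10 lay in 1 cell with a top doublet score. Col1a1 stood at 0.334-fold of the level of the cells without Spp1 in ND and 0.801-fold in HFD, and Col3a1, the fibrillar collagen of loose tissue, at 0.570-fold and 0.567-fold. Postn, a periosteal matrix gene, stood at 0.336-fold and 0.624-fold. Alpl, the phosphatase of early osteoblasts, was near even at 0.976-fold and 0.942-fold. In summed level the libraries parted for Ibsp, at 1.04-fold in ND and 5.17-fold in HFD, and for Bglap, at 3.16-fold and 0.970-fold. The share of cells with Ibsp was higher in the rich cells of both libraries. It was found in 9 of the 11 rich ND cells and 22 of the 37 without Spp1. In HFD it was found in 24 of the 26 rich cells and 36 of the 83 without Spp1. Runx2, the master regulator of osteoblasts, was 2.38-fold and 1.24-fold. Of the list of lipid-associated genes, 4 of 12 were lower in both libraries (Lpl, Apoe, Plin2 and Thbs1) and none higher. Apoe and Plin2 were highest in macrophage/monocyte-like cells over both libraries, but Lpl in osteoblast-like cells (283 UPM) and Thbs1 in neutrophil-like cells (1466 UPM). Apoe stood at 0.319-fold and 0.301-fold. The summed level of the neutrophil markers was 889 UPM in the rich ND cells against 2012 UPM in those without Spp1, and 990 against 11074 UPM in HFD. The part of such RNA in these ratios was not tested.

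**Figure D5:**
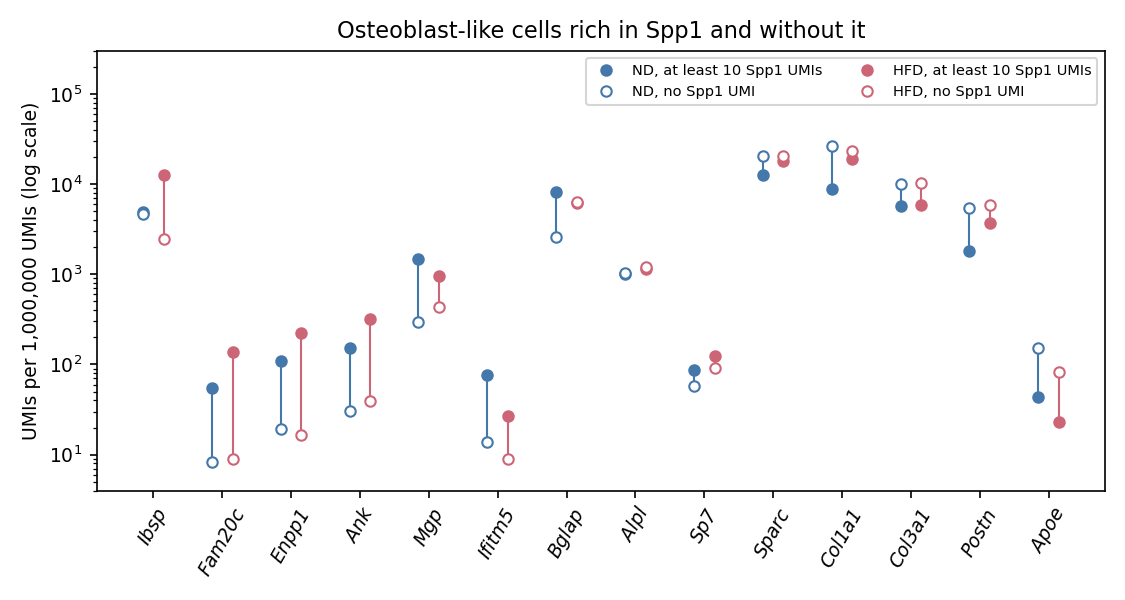
Level (UPM, log axis) of listed genes in osteoblast-like cells with at least 10 Spp1 UMIs (filled points) and with none (open points), with a line joining the points of each library. The genes drawn were chosen after their values were seen. Enpp1 and Ank were higher in the rich cells of both libraries, Apoe and Col3a1 were lower, and the summed level of Ibsp was apart in HFD only.

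Among all genes, Ibsp had the pattern most like that of Spp1. Over 34 clusters of cells, both libraries summed, Pearson's r between log levels was 0.87 for Ibsp and 0.87 for Tnn (tenascin-N, a matrix protein of periosteum and bone), out of 11881 genes. Bglap and Col11a1, a minor cartilage and bone collagen, followed at 0.81 each, then Sdk2 and Acan at 0.79 and Hapln1, a cartilage link protein, and Tiam2 at 0.78. Over the 26 clusters outside the mesenchymal cells r was 0.31 for Ibsp and 0.47 for Bglap, so the likeness lay mostly in the mesenchymal clusters. Clusters of 1 library share its cells and depth. Within osteoblast-like cells thinned to 1000 UMIs, Spearman's rho with Spp1 among 446 genes was 0.38 in ND (59 cells) and 0.38 in HFD (128 cells) for Ibsp. It was 0.31 and 0.37 for Timp1, an inhibitor of metalloproteinases, 0.34 and 0.28 for Tmem176a, 0.28 and 0.30 for Serpine2, a protease inhibitor, and 0.24 and 0.22 for Ptgis, the prostacyclin synthase. Col1a1 had -0.24 and -0.10. These are weak correlations in sparse counts.

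Of the other SIBLING genes, Ibsp had 2429 ND and 6476 HFD UMIs in osteoblast-like cells, a log2 ratio of 0.37 (0.30 to 0.44), well under that of Spp1. Dmp1 had 2 and 18 UMIs. Mepe had 3 and 0 UMIs, and Dspp, the dentin gene, had none in either library. As background for the diet ratio in osteoblast-like cells, 12.0% of 7709 genes were more than 1.5-fold higher in HFD and 11.1% more than 1.5-fold lower. Of the 2 other SIBLING genes tested, Dmp1 was past this fold. Of its 18 HFD UMIs, 10 lay in the cell with 1665 Spp1 UMIs, which had a top doublet score.

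Of 7 enzymes that act on osteopontin, 5 were past 1.5-fold higher in the HFD osteoblast-like cells and 1 was lower, all on fewer than 100 UMIs. Fam20c had 8 ND and 49 HFD UMIs, 14.8 and 43.9 UPM, a log2 ratio of 1.50 (0.48 to 2.86). Fam20a had 7 and 46 UMIs, a log2 ratio of 1.59 (0.52 to 3.07). Acp5, a phosphatase that removes phosphate from osteopontin, had 4 and 18 UMIs, Mmp9 had 4 and 21, and Tgm2 had 6 and 23. Plau, the urokinase, had 15 and 11 UMIs and was the 1 lower enzyme. The intervals of the ratios of Acp5, Mmp9 and Tgm2 spanned 0. Mmp9 was highest in neutrophil-like cells, at 811 UPM over both libraries against 15.1 UPM in osteoblast-like cells. The part of neutrophil RNA in its ratio was not tested. With a minimum of 100 UMIs per gene in place of 20, none of the 5 higher enzymes was tested. The genes past the fold upward over all lists then numbered 3 of 34 tested (Enpp1, Ank and Thbs1) in place of 11 of 51.

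Of 8 mineralization genes, Enpp1 (0.83 on the log2 scale) and Ank (1.00) were past 1.5-fold in HFD and none was lower. Among osteoblast regulators, Runx2 had 0.22 and Sp7, which acts after Runx2, had 0.44. None of 8 genes of matrix maturation was past the fold, and Col1a1 had 0.10 and Bglap 0.24. Of 4 osteoclast genes tested 3 were higher (Acp5, Mmp9 and Nfatc1), and the defining osteoclast genes Dcstamp, Ocstamp, Atp6v0d2 and Calcr had 0 UMIs in these cells. Of 12 lipid-associated genes 4 were lower, with Plin2, a lipid droplet protein, at -1.53 and Apoe, a lipid carrier, at -1.24, and Thbs1, a matrix glycoprotein, was higher at 0.92. Over both libraries Mmp9 had 811 UPM in neutrophil-like cells and 15.1 UPM in osteoblast-like cells, and Thbs1 had 1466 and 154 UPM. In HFD 18 of the 21 Mmp9 UMIs lay in 6 cells with no Spp1 UMI. The part of neutrophil RNA in these ratios was not tested.

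Neutrophil-like cells, the largest class, had Spp1 at 87.1 UPM in ND and 129 UPM in HFD, a log2 ratio of 0.57 (0.47 to 0.66). The median gene of the class had -0.07, and 505 of 10851 genes had a higher ratio. An Spp1 UMI was found in 296 of 2403 ND cells (12.3%) and 523 of 2431 HFD cells (21.5%) at median depths of 4126 and 4303 UMIs, and after thinning in 4.00% and 8.12%. At least 3 UMIs were found in 123 and 205 cells. The count was spread over more cells than in osteoblast-like cells, since the 10 highest held 25.5% in ND and 21.7% in HFD.

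Among the neutrophil-like clusters, cluster 4, with the granule genes Ltf, Camp and Ngp, had the highest ND level of Spp1, at 171 UPM (155 to 188), against 176 UPM (163 to 190) in HFD, and these intervals overlapped. Cluster 0 had 119 and 137 UPM, cluster 14 had 69.4 and 124 UPM, and cluster 6 had 68.6 and 81.0 UPM. Cluster 2, with the late genes Il1b and Il1r2, had the widest difference, from 24.1 to 150 UPM. Its highest HFD cell had 111 Spp1 UMIs, and without the highest cells the log2 ratio went from 2.63 to 2.17. Of these 5 clusters it had the lowest ND level. The remaining cluster 18 had 10 Spp1 UMIs in 169 ND cells and 0 in 18 HFD cells.

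RNA of mesenchymal genes also differed between the libraries in these cells. Col1a1, Col1a2, Col3a1, Sparc, Bglap, Bglap2 and Dcn were fixed as a measure of free RNA. These 7 mesenchymal genes summed to 156 UPM in ND and 276 UPM in HFD neutrophil-like cells. In B cell-like cells they summed to 47.9 and 124 UPM. Dcn held 1527 of 2487 ND and 2422 of 4700 HFD UMIs of this sum in neutrophil-like cells. Over both libraries Dcn had 26928 UPM in tenocyte-like and 8014 UPM in osteoblast-like cells, so the sum is not one of bone RNA alone. Of 7 mineralization genes tested 6 were higher in HFD neutrophil-like cells, beside a background of 4.41% of 10851 genes higher and 8.58% lower, and Ibsp had 20 and 144 UMIs. The part of this RNA in the Spp1 ratio was not tested. With the B cell-like level of each library subtracted, the log2 ratio of Spp1 was 0.51. Per 100 UMIs of these 7 mesenchymal genes, Spp1 had 2.72 ND and 13.2 HFD UMIs in osteoblast-like cells. In cluster 4 it had 495 and 120, on 87 and 548 UMIs of those genes. The source of the Spp1 in these cells was not tested. In the 37 ND neutrophil-like cells with at least 10 Spp1 UMIs the mesenchymal markers summed to 27.8 UPM, against 161 UPM in the 2107 cells with none, and Ltf had 9311 against 5253 UPM. In HFD the mesenchymal markers of the 57 rich cells summed to 459 UPM against 153 UPM, and 1 of these cells held 57 Ibsp and 36 Col1a1 UMIs and had a top doublet score.

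Hematopoietic progenitor-like cells had levels with overlapping intervals, 57.9 UPM (52.4 to 63.8) in ND and 54.9 UPM (48.7 to 61.7) in HFD, a log2 ratio of -0.08 (-0.30 to 0.15). The ratio was -0.77 without the 5 highest cells of each library, -0.61 with the B cell-like level subtracted and 0.80 after thinning. The highest cell had 95 Spp1 UMIs in ND and 90 in HFD. These cells held 199 and 108 UMIs of Mpo, the myeloperoxidase of early granulocytes, and no UMI of Ibsp, Col1a1 or Bglap. An Spp1 UMI was found in 20.1% and 18.7% of cells at median depths of 31053 and 26728.5 UMIs, and after thinning in 2.20% and 4.17%. The class was the deepest of those compared.

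Macrophage/monocyte-like cells had Spp1 at 44.6 UPM in ND and 86.3 UPM in HFD, a log2 ratio of 0.95 (0.75 to 1.16), and much of it lay in 1 cell. That HFD cell had 204 Spp1 UMIs, 35.6% of the class, with 10 UMIs of Cd68, 6 of Acp5, none of the bone genes Ibsp and Col1a1, and a top doublet score. Without the highest cell of each library the log2 ratio was 0.47, and without the top 5% of doublet scores it was 0.18. An Spp1 UMI was found in 11.7% of ND and 17.8% of HFD cells, and after thinning in 2.85% and 3.01%. Cluster 10 went from 38.1 to 157 UPM with that cell, a log2 ratio of 2.04 that was 1.13 without the highest cells, and cluster 7 had 45.4 and 54.8 UPM. Cluster 21, led by Ccl2 and Ccr2, went the other way, from 63 Spp1 UMIs in 113 ND cells (52.2 UPM, 40.1 to 66.8) to 1 UMI in 37 HFD cells (3.15 UPM, 0.0798 to 17.6). It was 113 of 528 cells of the class in ND and 37 of 534 in HFD, so the clusters made up different shares of the class in each library.

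The genes that mark Spp1-positive, lipid-associated macrophages in other tissues had a lower summed level in the Spp1-rich cells, and single genes of the list went both ways. In the 10 ND macrophage/monocyte-like cells with at least 10 Spp1 UMIs this list summed to 6461 UPM against 8375 UPM in the 466 cells with none, and in 12 HFD cells to 6257 against 7523 UPM. Markers of hematopoietic progenitors were higher in the rich cells, at 1405 against 189 UPM in ND and 1229 against 230 UPM in HFD. Elane, the neutrophil elastase of early granulocytes, had 661 against 56.7 UPM and 287 against 59.4 UPM. Trem2, a lipid receptor of macrophages, had 107 against 253 UPM in ND and 330 against 160 UPM in HFD, so its direction differed. Gpnmb had 65.5 against 24.8 UPM in ND and 3.30 against 23.9 UPM in HFD.

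Between the diets, 1 of 14 lipid-associated genes was higher in HFD macrophage/monocyte-like cells (Gpnmb, a lysosomal glycoprotein) and none was lower, beside a background of 4.22% of 10911 genes higher and 6.6% lower. Of 7 osteopontin-modifying enzymes 4 were lower (Acp5, Mmp9, Plau and Ctsd, a lysosomal protease) and none higher. Of 9 osteoclast genes 2 were higher and 3 lower. In neutrophil-like cells none of 14 lipid-associated genes was higher and 1 (Ctsl) was lower.

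Among the named classes, the receptor genes of osteopontin were highest in several different classes, and no share of all genes was set beside this. Cd44, the receptor for hyaluronan and osteopontin, was highest in macrophage/monocyte-like cells, at 364 UPM over both libraries, and had 73.5 UPM in osteoblast-like cells. Itga4 was highest in NK-like cells at 356 UPM. Itgb1, the shared beta chain of many integrins, was highest in pericyte or smooth muscle-like cells at 844 UPM and had 670 UPM in osteoblast-like cells. Itga8 was also highest in pericyte or smooth muscle-like cells, at 129 UPM. Itgav, Itgb3, Itga5 and Itga9 were highest in fibroblast progenitor-like cells. So was Itgb6, but on 2 UMIs there, too few to place it. Itgav had 81.7 UPM there and 72.3 UPM in osteoblast-like cells. Itgb5, which pairs with Itgav, was the receptor gene that peaked in osteoblast-like cells, at 260 UPM, and it was also higher in the cells rich in Spp1, by 1.92-fold in ND and 1.54-fold in HFD. Between diets, none of 5 receptor genes was higher in osteoblast-like cells and 1 was lower (Itga5, 13 ND and 18 HFD UMIs). In macrophage/monocyte-like cells 1 of 9 was higher (Itgb3, 25 and 38 UMIs) and none lower. The intervals of both log2 ratios spanned 0, at -1.68 to 0.58 and -0.16 to 1.40. None of 8 moved past the fold in neutrophil-like cells. As background, 12.0% of genes were higher and 11.1% lower in osteoblast-like cells, and 4.22% and 6.6% in macrophage/monocyte-like cells.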

How the data were processed

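The authors deposited UMI counts per gene and barcode, 1 matrix per diet, made per the labels with Cell Ranger 6.0.1 on mm10. Each matrix was labelled by diet, with no map from barcodes to the 4 labelled mice. Barcodes with more than 500 and fewer than 8000 genes and under 20% mitochondrial UMIs were kept. Spp1 was taken out of the matrix before clustering, so that it placed no cell. Cells were normalised with SCTransform (sctransform 0.4.2) with regression of the cell cycle and clustered with 30 components at resolution 0.5 in Seurat 5.3.0 (R 4.3.3), and mesenchymal-like cells were clustered again at 0.4, a value chosen after seeing the data. Clusters were named from marker lists, at least 3 markers being needed, and are called "-like"; names rebuilt in this way can differ from those of the study. Scrublet (scanpy 1.11.5) called 9 ND and 23 HFD cells, 0.149% and 0.370%, under the 0.5% below which a caller was taken not to have worked, so doublets were kept, with the top 5% of scores removed as an alternative.

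Levels were summed counts per 1000000 UMIs with exact Poisson intervals, and shares used Clopper-Pearson intervals (scipy 1.17.1). Ratios had a prior of 0.5 counts, a gene needed 20 UMIs in a class to be counted, and a fold of 1.5 was called. With 1 library per diet there was no test and no p-value. The ratio code was tested on simulated data. Spp1, the gene lists and the alternatives were chosen with earlier results of these data known. Named genes were Spp1, the genes of the lists, the 8 and 5 genes most like it over clusters and over osteoblast-like cells, and its neighbours on the chromosome. The count over the list of osteoblast regulators is not reported here. Promoter windows came from RefSeq (GRCm38.p6).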

Additional observations from a re-analysis of the deposited data

Results flagged for a closer look

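Barcodes that the filter on genes and mitochondrial UMIs removed, and that enter no comparison, held Spp1 at 90.7 UPM (66.9 to 120) in HFD. These were 48 Spp1 UMIs in 40 of 412 barcodes, at most 5 in any, above the 5.67 UPM that 3 counts give. In ND they held 3 Spp1 UMIs in 285 barcodes, 6.63 UPM, which is the level of 3 counts in that library.

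The Spp1 ratio of HFD over ND had opposite signs in 2 mesenchymal classes, at -1.07 (log2) in tenocyte-like cells and 2.41 in osteoblast-like cells. With 1 library per diet this difference was not tested, and the tenocyte-like value turned positive without its highest cells.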

How the results depend on the processing

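All values here are log2 ratios of the Spp1 level, HFD over ND. Removing the top 5% of doublet scores, the top 1 cell, the top 10 cells or the top 10% of cells were alternatives chosen after seeing the data. Over all kept cells the ratio of 2.20 became 1.88 without top doublet scores, 1.97 with cells weighted equally, 1.99 after thinning to 1000 UMIs, 2.39 with the B cell-like level subtracted, 1.60 with the same class weights, and 2.26, 1.62 and 1.06 without the top 1, 5 and 10 cells. In osteoblast-like cells the ratio of 2.41 became 1.55 without top doublet scores, 2.27 with equal weights, 3.65, 2.91 and 3.24 without the top 1, 5 and 10 cells, and 0.96 without the top 10%. The same number of cells is a larger share of the 59 ND than of the 130 HFD cells. Over all 14 and 15 alternatives both ratios were above 0, but some of these alternatives could not move them. Clustering at resolution 0.25 or 1, or with Spp1 kept in, leaves the set of all kept cells as it was. Clustering the mesenchymal-like cells at 0.2 gave the same 189 osteoblast-like cells, and removing the cells called by Scrublet left 2.41 unchanged. In neutrophil-like cells the ratio of 0.57 became 0.47 with a minimum of 200 genes, 0.45 under 10% mitochondrial UMIs, 0.89 with equal weights and 0.86 after thinning. In macrophage/monocyte-like cells the ratio of 0.95 became 0.18 without top doublet scores and 0.47, 0.42 and 0.50 without the top 1, 5 and 10 cells. In progenitor-like cells the ratio of -0.08, whose interval spanned 0, became 0.15 with equal weights, 0.80 after thinning, -0.61 with the B cell-like level subtracted, and -0.77 and -0.63 without the top 5 and 10 cells. The tenocyte-like ratio reversed to 0.47 and 0.91 without the top 5 and 10 cells and to 0.26 without the top 10%. Beyond the removal of named cells, the cause of these shifts was not tested.

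Counts of listed genes past 1.5-fold depended on the minimum and the fold. In osteoblast-like cells 11 higher became 3 at 100 UMIs and 5 at 2-fold, and 6 lower became 2 at 100 UMIs. In neutrophil-like cells 13 higher became 7 at 100 UMIs, and 3 lower became 0 at 2-fold. In macrophage/monocyte-like cells 6 higher became 2 at 100 UMIs and 2 at 2-fold, and 9 lower became 5 at 2-fold. No paired analysis was possible because the barcodes carry no mouse, and for the same reason no replicate could be left out.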

Other observations

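The cells of unnamed cluster 11, a shallow cluster with a median of 1352 UMIs in ND and 1566 in HFD, had Spp1 at 138 UPM (105 to 178) in 211 ND cells and 35.2 UPM (18.7 to 60.2) in 155 HFD cells, from 59 and 13 Spp1 UMIs. Of the 59, 1 ND cell held 37 (62.7%), so most of this difference rested on 1 cell. Unnamed cluster 12, whose leading genes included Fabp4, Ly6c1, Ccl21a, Tm4sf1 and Cav1, had 3.46 UPM (0.420 to 12.5) in ND and 23.3 UPM (15.2 to 34.1) in HFD.

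Among the mesenchymal cells as a whole, Spp1 had 369 UPM in ND and 2307 UPM in HFD, and an Spp1 UMI was found in 16.7% of 408 ND cells and 17.8% of 668 HFD cells. The log2 ratio of 2.64 was 3.18 without the highest cell of each library, 1.89 without the 10 highest and 0.50 without the top 10% of cells.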
